A study of Mus musculus with 24 samples.

Results

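Old and young cortex of mice lacking apolipoprotein D (ApoD) were compared on 6 of the 24 arrays of a mouse brain series, chosen by their labels for region, genotype and age. The 3 old arrays carried cortex RNA of ApoD-KO male C57BL/6J mice at 655 days, and the 3 young arrays that of ApoD-KO males at 100 days. Wild-type (WT) cortex and ApoD-KO hippocampus of male C57BL/6J mice at the same ages, each with 3 old and 3 young arrays, were set beside them. No treatment beyond genotype is given in the labels, which also do not say how the ApoD allele was made. The RNA on an array was pooled from 2 to 3 mice, so the spread between arrays is a spread between pools and not between single mice.

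ApoD is a secreted carrier of small lipids of the lipocalin family, made in the brain mainly by glial cells, and its transcript is known to increase with age. Loss of ApoD is known to weaken the defence of the brain against oxidative stress. The comparison of old with young KO cortex describes the change with age that takes place without it, and the series asks whether that change differs between genotypes and regions.

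The deposited table names features by Ensembl gene ID only, and no table used here pairs these IDs with gene symbols, so 0 of the 23879 IDs could be named. The genes behind the rising and falling IDs, their roles and their cell types are therefore not given, the tissue label was not checked against marker genes, and no sequence is shown. Results are given by the counts of IDs that moved, by their sizes and levels, and by the 2 IDs with the largest change in each direction. Values are log2 signal, on which a difference of 1 is a doubling. Of the 23879 IDs, the 14327 with a mean level above 6.63 log2 were tested.

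The 6 arrays were close to each other in scale, with medians between 7.34 and 7.40 log2 over all IDs. Pairs of arrays of the same age had a correlation across IDs of 0.995 to 0.996, and pairs of different age 0.991 to 0.995. IDs are not independent replicates, and these values describe the arrays. The first principal component of the 6 arrays held 44.2% of the variance and placed the young arrays at -10.0, -11.9 and -2.87 and the old arrays at 7.25, 9.65 and 7.96. On this component young replicate 3 lay nearer to the old arrays than the other young arrays did. Its median absolute difference was 0.0768 log2 from old replicate 2, 0.0805 from young replicate 1 and 0.0806 from young replicate 2. Its correlations with these arrays, 0.9953, 0.9954 and 0.9955 in that order, ranked the young arrays first. ENSMUSG00000022548 was chosen after its values were seen, as the ID that differed most between KO and WT arrays. The choice favours a difference but does not set its size, and the ID was not used to check the labels. Over both regions its level was at most 8.29 log2 on the 12 KO arrays and at least 11.63 on the 12 WT arrays. Its level on the 6 KO cortex arrays was at most 8.23 log2, and on the 6 WT cortex arrays at least 11.63. No table used here ties this ID to the targeted gene.

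With age, 161 IDs rose and 78 fell in KO cortex, at an adjusted p under 0.05 in the limma fit to all 24 arrays. These 239 IDs were 1.67% of those tested, with 1.12% rising and 0.544% falling. The changes were small for most IDs. The median rise was 0.38 log2, a 1.30-fold difference, and the middle 50% of the rising IDs lay between 0.31 and 0.50. The median fall was 0.45 log2, or 1.37-fold, with the middle 50% between 0.33 and 0.64. A change above 1 log2 was found for 4 rising and 4 falling IDs, and one above 0.5 log2 for 40 and 33. For all tested IDs the median absolute difference was 0.069 log2.

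**Figure D1:**
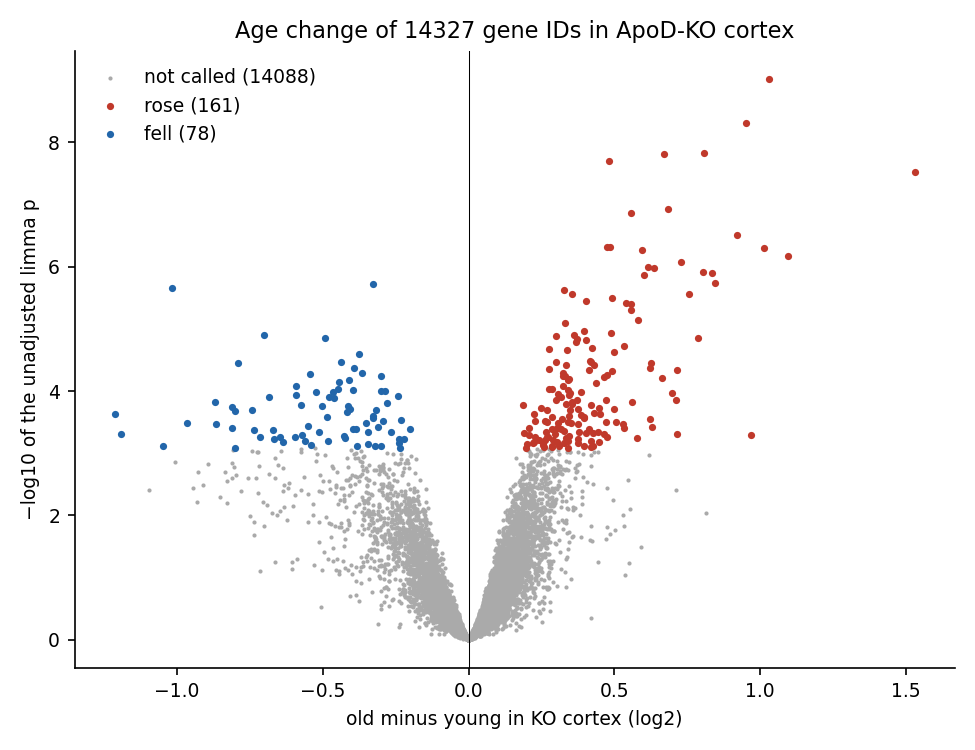
Change with age of each tested gene ID in KO cortex (x axis, log2, old minus young) against the −log10 of its unadjusted limma p (y axis). The 161 IDs that rose and the 78 that fell are coloured. The smallest p-values belong to rising IDs, and the largest change is a rise of 1.53 log2.

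ENSMUSG00000041596 had the largest rise. Its level was 8.27, 7.85 and 8.77 log2 on the 3 young KO cortex arrays and 10.09, 9.75 and 9.63 on the 3 old ones. The groups did not overlap, and the lowest old array lay 0.87 log2 above the highest young one. The rise was 1.53 log2 (SE 0.18, 2.89-fold, limma adjusted p = 7.26e-05). In WT cortex the same ID went from 8.50 ± 0.22 to 9.65 ± 0.12 (SD, n = 3 each), a rise of 1.15 log2 with a limma adjusted p of 1.57e-03. The KO hippocampus levels were 8.30 ± 0.21 and 8.68 ± 0.15, a difference of 0.37 log2 that was not called (limma adjusted p = 0.229). The difference of the age change between KO and WT cortex was 0.38 log2 (SE 0.25, limma adjusted p = 0.908), and that between KO cortex and KO hippocampus was 1.16 log2 (SE 0.25, limma adjusted p = 0.0690). Neither passed the threshold.

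ENSMUSG00000082286 had the second largest rise. Its level was 10.32, 10.65 and 10.28 log2 on the young KO cortex arrays and 11.53, 11.46 and 11.55 on the old ones. The old arrays lay within 0.1 log2 of each other and 0.81 log2 above the highest young array. The rise of 1.10 log2 (SE 0.16, 2.14-fold, limma adjusted p = 6.80e-04) stood beside rises of 1.20 log2 in WT cortex (limma adjusted p = 3.03e-04) and 0.88 log2 in KO hippocampus (limma adjusted p = 2.63e-03). This ID therefore rose in all 3 of these comparisons. Its age change in KO cortex differed by -0.10 log2 (SE 0.22) from that in WT cortex and by 0.21 log2 (SE 0.22) from that in KO hippocampus, with limma adjusted p-values of 0.985 and 0.700.

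Among falling IDs the largest change was that of ENSMUSG00000062319. It stood at 10.70, 10.89 and 10.21 log2 on the young KO cortex arrays and at 9.39, 9.45 and 9.32 on the old ones. The old arrays were closely grouped, while the young ones were spread, with replicate 3 the lowest of the young. The fall was -1.21 log2 (SE 0.27, 2.32-fold, limma adjusted p = 0.0263). In WT cortex the levels were 10.29 ± 0.41 and 9.81 ± 0.51 and in KO hippocampus 9.65 ± 0.46 and 9.79 ± 0.23 (SD, n = 3 each). The differences there, -0.47 and 0.14 log2, were not called (limma adjusted p = 0.560 and 0.807), and the SDs there were 0.23 to 0.51 log2. The call in KO cortex was lost when young replicate 1, young replicate 2 or any 1 of the old arrays was left out, with limma adjusted p-values from 0.0747 to 0.154.

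ENSMUSG00000065419 was a dim ID, in the lowest 5.05% of tested IDs by mean level. Its young KO cortex arrays read 7.75, 8.03 and 6.92 log2 and its old ones 5.99, 6.52 and 6.61. The old values lay below the level of 6.63 log2 used as the filter on means, and the gap between the groups was 0.31 log2. The fall was -1.19 log2 (SE 0.29, 2.28-fold, limma adjusted p = 0.0378). This call was lost under 9 of 16 alternative settings, including no filter on level (limma adjusted p = 0.0536) and robust moderation (0.0533). In WT cortex the difference was -0.52 log2 (limma adjusted p = 0.529), and in KO hippocampus 0.09 log2 (0.884).

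**Figure D2:**
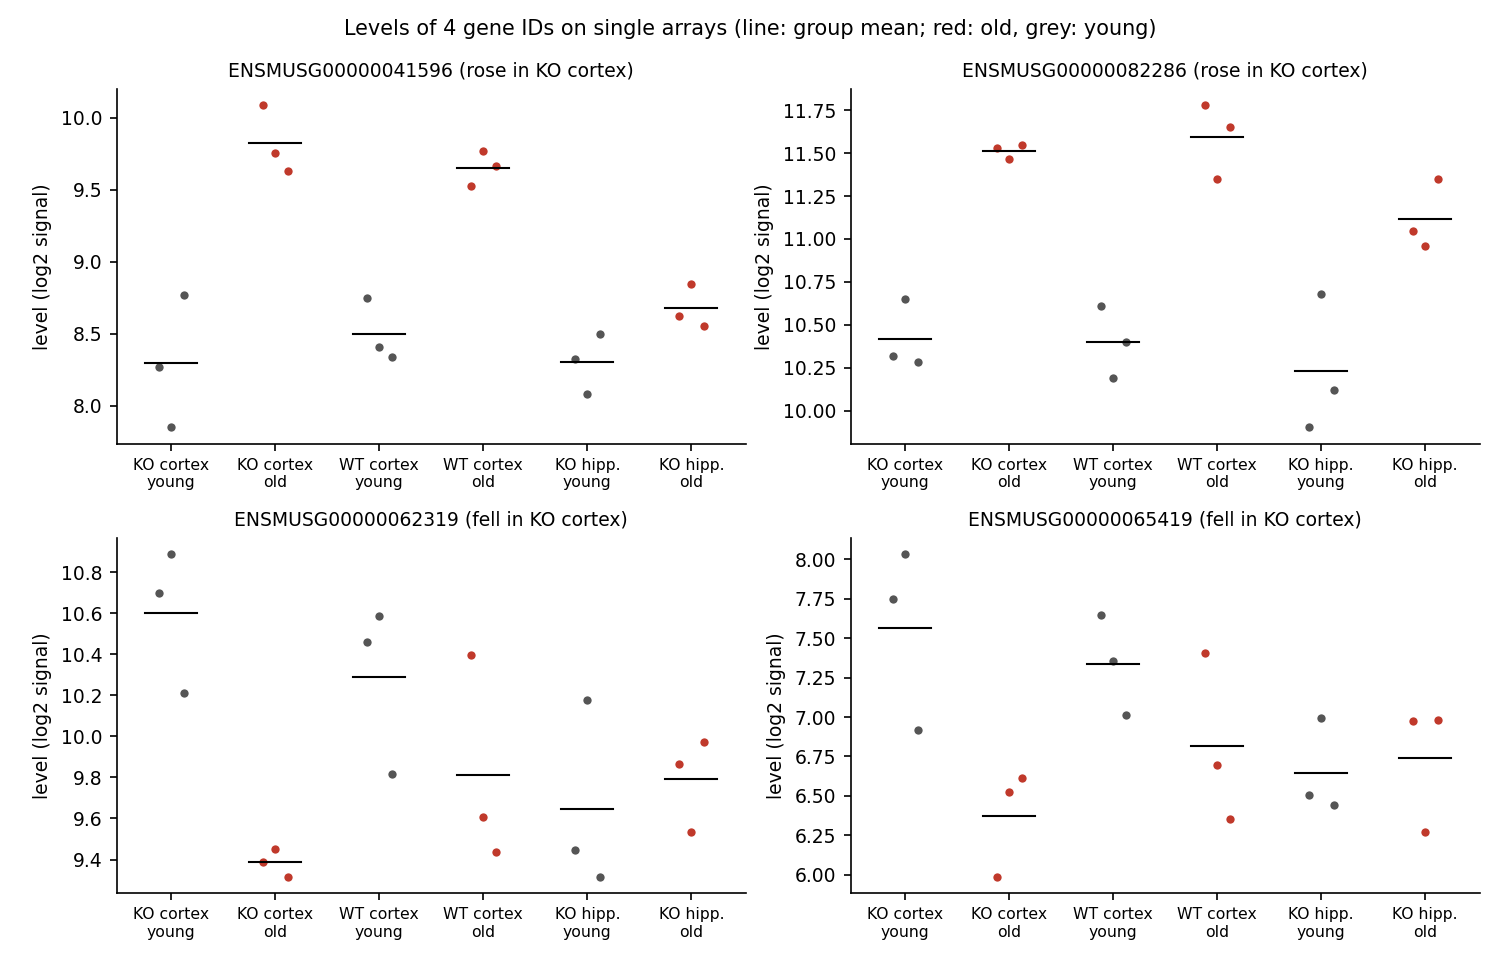
Level (y axis, log2 signal) of the 2 IDs with the largest rise and the 2 with the largest fall on single arrays of KO cortex, WT cortex and KO hippocampus, with a line at each group mean. The IDs were picked from those without overlap between old and young KO cortex, and the falling IDs are widely spread within the WT cortex groups. Levels of different IDs are not comparable, since each rests on its own probes.

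ENSMUSG00000022548, the ID with the largest difference between genotypes, did not pass the test for age in KO cortex. Its level was 7.89, 8.14 and 8.03 log2 on the young arrays and 8.23, 8.03 and 8.15 on the old ones, and the groups overlapped. The difference was 0.11 log2 (SE 0.088, limma adjusted p = 0.600). In WT cortex it rose by 0.55 log2 (limma adjusted p = 1.95e-03), from 11.71 ± 0.07 to 12.26 ± 0.06 (SD, n = 3 each). The difference between these age changes was -0.43 log2 (SE 0.12) and did not pass the threshold (limma adjusted p = 0.544). The age changes were read at unlike levels in KO and WT cortex, and signal over background is unknown. Whether the KO levels hold signal of this ID was not tested.

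Of the 161 rising IDs, 160 had all 3 old arrays above all 3 young arrays, and all 78 falling IDs had the old arrays below the young ones. The IDs were called on these same arrays, so this separation largely follows from the call. Over all tested IDs, 13.6% had the old arrays above and 7.95% had them below the young ones, so that 21.6% did not overlap. A rise or fall with no overlap was thus far more frequent than a call. A call depends on the spread over all groups and must pass the adjustment for all tested IDs. Before adjustment 2188 IDs (15.3%) had a p under 0.05, where 716 would be expected with no change.

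Calls were found over the whole range of levels. Split into 4 bins of equal size by mean level, from dim to bright, 45, 59, 29 and 28 IDs rose and 13, 31, 21 and 13 fell. The bin with the most calls spanned 7.78 to 8.91 log2, with 1.65% rising and 0.865% falling. The median SE fell from 0.085 log2 in the dimmest bin to 0.060 in the brightest, so a higher precision of bright IDs did not come with more calls.

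The rising IDs and the falling IDs differed in how they varied between pools of the same group. Averaged over the 161 rising IDs, the young KO cortex arrays read 8.31, 8.29 and 8.34 log2 and the old ones 8.74, 8.77 and 8.75. Averaged over the 78 falling IDs, the young arrays read 9.17, 9.23 and 8.96 and the old ones 8.60, 8.60 and 8.62. The differences between old and young in these means follow from the choice of the IDs. Not fixed by it is the position of young replicate 3, which was 0.2 log2 or more below the other young arrays for the falling IDs and level with them for the rising IDs.

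On the other 18 arrays, which took no part in the contrast except through the spread, the falling IDs varied together. The median correlation between pairs of falling IDs, over the deviations of these 18 arrays from their group means, was 0.532. It was 0.133 between pairs of rising IDs and 0.088 between pairs in a set of every 10th tested ID (1433 IDs). These correlations share the same 18 arrays and are given as a description. The median within-group SD over the same arrays was 0.126 log2 for falling IDs, 0.101 for rising IDs and 0.094 for all tested IDs. Averaged over the falling IDs, the 3 old WT cortex arrays ran from 8.67 to 8.97 log2 and the 3 young ones from 8.86 to 9.08, so the ages overlapped. In KO hippocampus the range was 8.69 to 8.94 for young and 8.69 to 8.83 for old arrays, again overlapping. Averaged over the rising IDs, WT cortex ran from 8.35 to 8.41 in young and from 8.63 to 8.67 in old arrays, and KO hippocampus from 8.58 to 8.72 and from 8.90 to 8.93, with no overlap in either. The part of the shared variation in the falls of KO cortex was not tested.

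**Figure D3:**
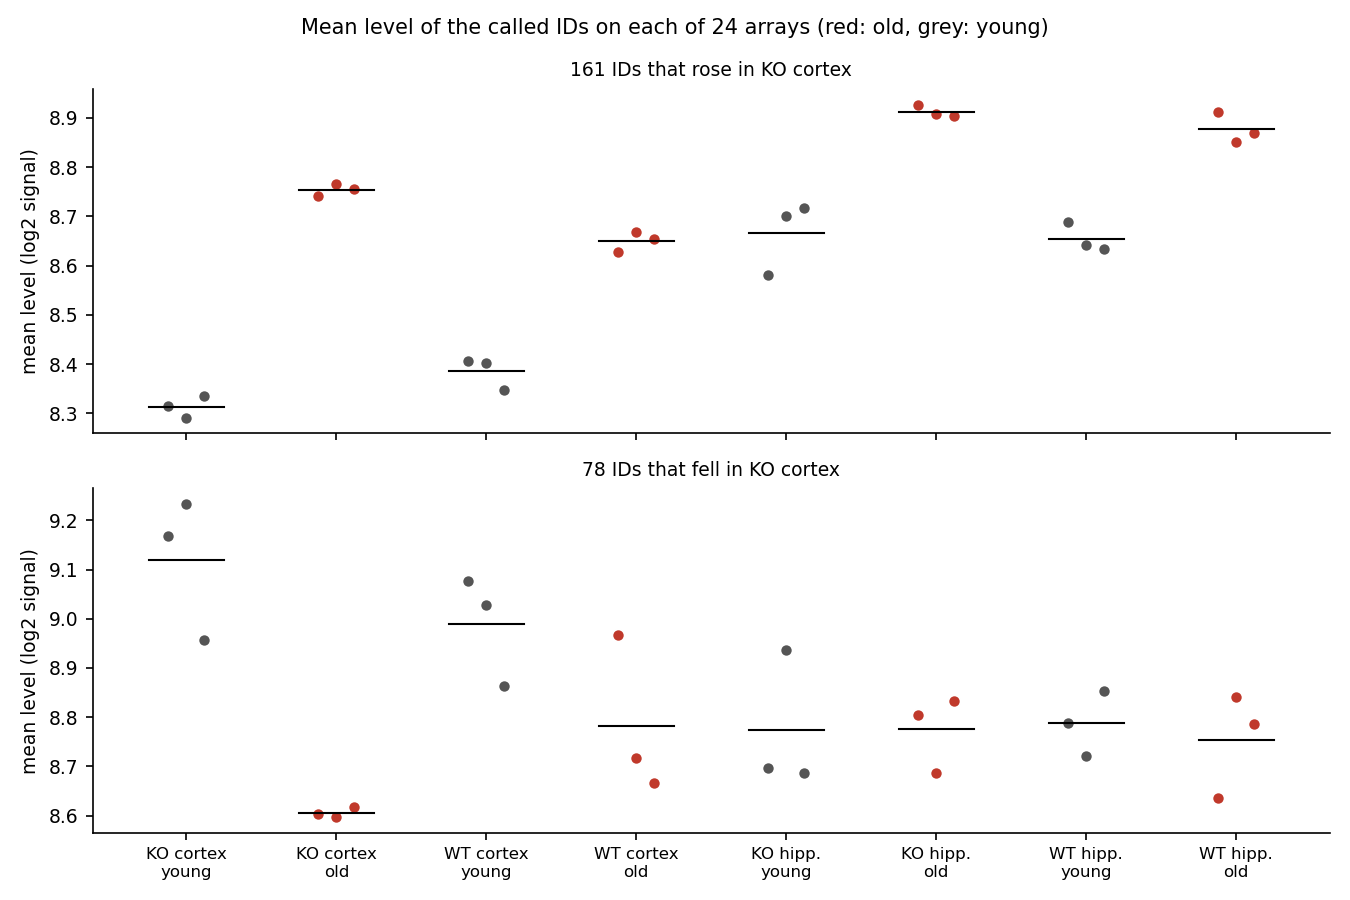
Mean level (y axis, log2 signal) of the 161 IDs that rose (top) and the 78 that fell (bottom) in KO cortex, on each of the 24 arrays, with a line at each group mean. The difference in KO cortex follows from the choice of IDs. In WT cortex and KO hippocampus old and young arrays are separate for the rising IDs and overlap for the falling ones.

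The same IDs were then read in WT cortex, whose 6 arrays are shared with no KO group. Of the 161 rising IDs, 144 had a positive age change in WT cortex, with a median of 0.20 log2, and 41 were called there as rising and 0 as falling. Of the 78 falling IDs, 74 had a negative age change in WT cortex, with a median of -0.19 log2, and 6 were called as falling and 0 as rising. Of all 14327 tested IDs, 7074 (49.4%) had a positive age change in WT cortex and 7253 a negative one. IDs that vary together, as the falling ones do, are not independent counts. Over all tested IDs the median age change in WT cortex was -0.0016 log2, and 1.03% were called, with 0.824% rising and 0.209% falling. The 41 shared rises were 25.5% of those in KO cortex and 34.7% of those in WT cortex. The 6 shared falls were 7.69% and 20.0%. The 2 comparisons use the same estimate of spread for each ID, which eases the calling of the same IDs in both.

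IDs chosen in WT cortex gave a reading of KO cortex that did not use the KO values in the choice, other than through the filter and the spread. Of the 118 IDs that rose in WT cortex, 110 had a positive change in KO cortex, where 58.6% of all tested IDs did. The median was 0.19 log2 in KO against 0.41 in WT, where the choice inflates it, and the 3 old KO arrays lay above the 3 young ones for 55.9% of the IDs, against 13.6% of all tested IDs. Of the 30 IDs that fell in WT cortex, 27 had a negative change in KO cortex, where 5930 of all 14327 tested IDs did. The median of these 30 was -0.15 log2. The old KO arrays lay below the young ones for 66.7% of them, against 7.95% of all tested IDs.

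The test of whether the age change differed between KO and WT cortex called 0 of 14327 IDs (0%) with limma. The smallest adjusted p was 0.287, and 889 IDs (6.21%) had an unadjusted p under 0.05, where 716 would be expected with no difference. The median SE of this difference was 0.106 log2, against 0.075 for the age change itself. The count was 2 when young WT cortex replicate 3 was left out, and 3 when young KO hippocampus replicate 1 was. Among the IDs called in KO cortex, the median of KO minus WT was 0.18 log2 for rising and -0.27 for falling IDs. These medians are inflated by the choice of IDs on the KO values, and a larger age change in KO cortex than in WT cortex is not shown by them.

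In KO hippocampus most of the rising IDs kept their sign, while the falling IDs were divided. Over all tested IDs, 58.7% had a positive age change in KO hippocampus, 58.6% in KO cortex and 49.4% in WT cortex. Of the 161 IDs that rose in KO cortex, 139 had a positive age change in KO hippocampus, with a median of 0.20 log2, and 56 were called there as rising. Of the 78 that fell, 42 had a negative and 36 a positive change, with a median of -0.02 log2, and 3 were called as falling. Over all tested IDs the median was 0.03 log2, and 5.38% were called in KO hippocampus, with 4.13% rising and 1.25% falling. That balance was not stable: 592 rose and 179 fell as reported, 334 and 388 after median centring, and 239 and 281 without young KO hippocampus replicate 1, while a fit to the 6 KO hippocampus arrays alone called 10 IDs. The 56 shared rises were 34.8% of those in KO cortex and 9.46% of the 592 in KO hippocampus. The 3 shared falls were 3.85% of those in KO cortex and 1.68% of the 179 in KO hippocampus. In all 3 comparisons, 24 IDs rose and 1 fell.

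Read from the other side, 472 of the 592 IDs that rose in KO hippocampus had a positive change in KO cortex, where 58.6% of all tested IDs did, with a median of 0.09 log2. The old KO cortex arrays lay above the young ones for 35.1% of them, against 13.6% of all tested IDs. The 179 IDs that fell in KO hippocampus had a median change of -0.02 log2 in KO cortex, with 99 negative and 80 positive, and the old arrays lay below the young ones for 12.3% of them, against 7.95%.

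**Figure D4:**
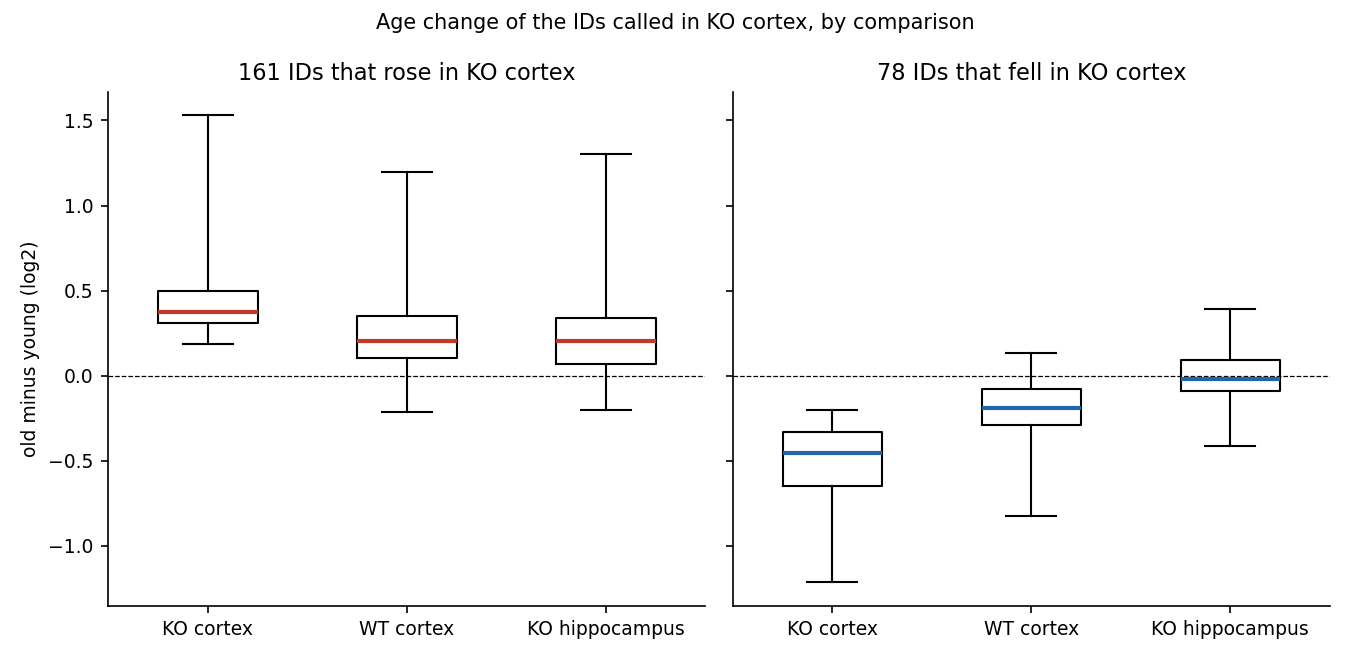
Age change (y axis, log2, old minus young) of the 161 IDs that rose (left) and the 78 that fell (right) in KO cortex, in KO cortex, WT cortex and KO hippocampus. Boxes span the middle 50% with a line at the median, and whiskers reach the lowest and highest ID. In KO hippocampus the median is 0.20 log2 for the rising and -0.02 for the falling IDs.

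The age change of KO mice differed between cortex and hippocampus for 26 IDs, 0.181% of those tested, by a limma test of the interaction. For 9 of these (0.0628%) the change was higher in cortex, with a median difference of 0.51 log2 and a smallest adjusted p of 0.00774. All 9 had opposite signs in the regions, 5 were called as rising in cortex and 4 as falling in hippocampus. For 17 (0.119%) the change was lower in cortex, with a median difference of -0.58 log2. Of these, 15 had opposite signs, 3 were called as falling in cortex and 14 as rising in hippocampus. Choosing IDs by this test on the same arrays favours opposite signs and inflates the median differences. Over all tested IDs, 44.9% had opposite signs. Without 1 array the count ran from 1 to 117. It was 1 without old KO cortex replicate 1, without old KO hippocampus replicate 1 or without old KO hippocampus replicate 3, 2 without young KO cortex replicate 2 or old KO cortex replicate 2, 8 without young KO cortex replicate 1, 15 without old KO cortex replicate 3 and 16 without old KO hippocampus replicate 2. It was 51 without young KO hippocampus replicate 1 and 53 without young KO cortex replicate 3. The highest count, 117, came without young KO hippocampus replicate 2. The direction also moved with the scaling, from 34.6% higher in cortex to 53.1% after quantile normalization and 69.2% after median centring. The interaction test took cortex and hippocampus arrays as independent, and whether they shared animals is not known here.

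The count of IDs called in KO cortex depended on single arrays, and the falling IDs more so than the rising ones. Without young replicate 3, 154 rose and 158 fell. Leaving out young replicate 1 gave 89 and 23, and leaving out young replicate 2 gave 59 and 6. Without old replicates 1, 2 and 3 the numbers were 99 and 23, 71 and 19, and 71 and 21. Young KO hippocampus replicate 1, which had the highest root mean square deviation from its group mean of the 24 arrays (0.161 log2) and enters the shared spread, raised the numbers to 239 and 125 when left out. Over the 6 fits without 1 KO cortex array, a single fit called again 57 to 119 of the 161 rises and 6 to 73 of the 78 falls, and 42 rises and 4 falls were called in all 6 of them. The balance of directions also moved with the method. Of the calls, 67.4% were rises as reported, 54.6% after quantile normalization (172 and 143), and 48.4% in a fit to the 6 arrays alone (138 and 147).

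**Figure D5:**
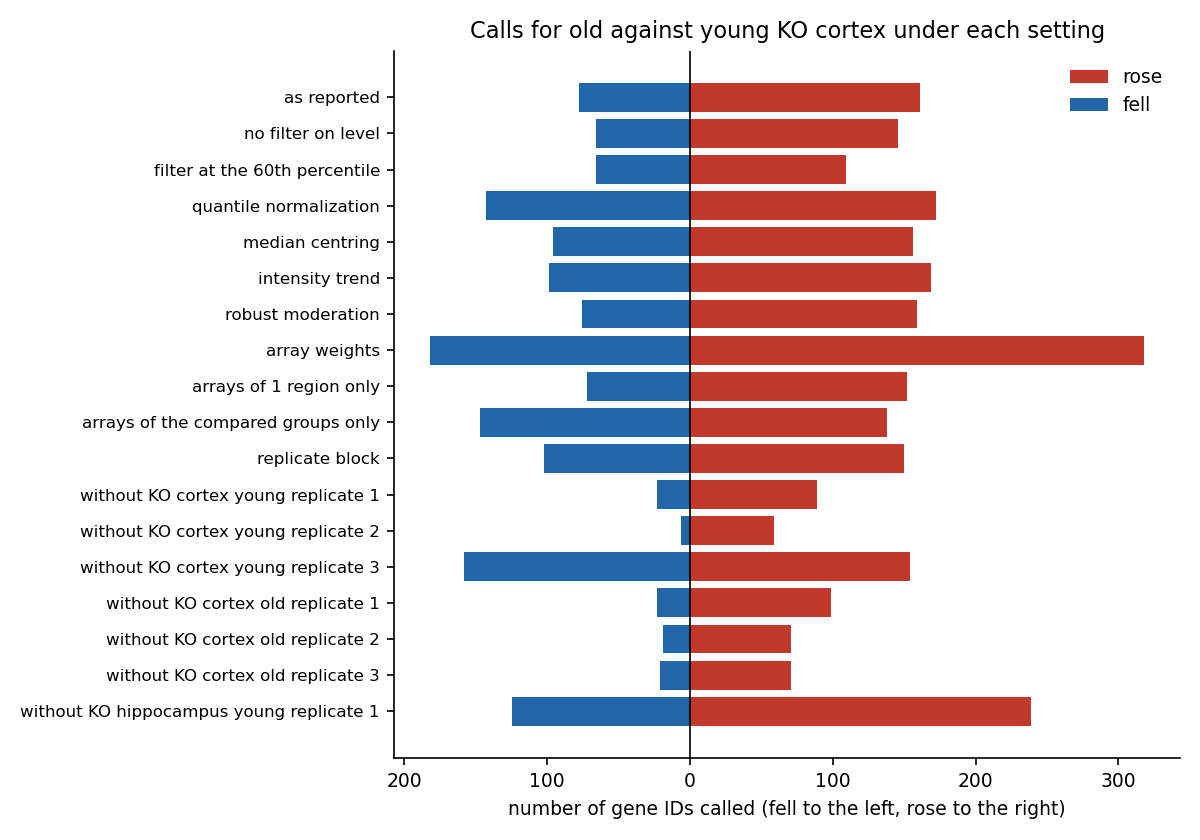
Number of IDs that rose (to the right) and fell (to the left) with age in KO cortex, as reported and under each alternative setting. Falls number 158 without young replicate 3 and 6 without young replicate 2.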

How the data were processed

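Total RNA was hybridized to Affymetrix arrays, 3 in each of 8 groups, per the labels' protocols. The deposited values are log2 signals of 23879 Ensembl gene IDs, a unit read from the values (3.99 to 14.4, 0 missing). The authors' processing used MAS5 and RMA, per the submitters' processing notes, with no role or version. Array model, annotation build and background level are unknown here, and the number of arrays limits the precision.

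R 4.3.3 and limma 3.58.1 (lmFit, eBayes) fitted a model of 8 group means to the 24 arrays, with 16 residual degrees of freedom, over IDs with a mean above the 40th percentile. Two-sided p-values were adjusted per comparison by the Benjamini-Hochberg method, and IDs were called under 0.05. The procedure was tested on simulated data with independent noise for each ID and array. Such data do not cover IDs that vary together or arrays that differ in spread.

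The comparison, gene lists and tests were chosen with earlier results of these data known. The reference table (GRCm38.p6) lists 0 Ensembl IDs, so 0 of 55 gene lists could be used. The rule for named IDs, the largest changes among called IDs with no overlap between groups, was kept to 2 in each direction, and its parts that need symbols and those for the interaction tests were left out. No array duplicated another, and the labels give no hybridization batch. Alternatives covered the filter, scaling, moderation, array weights, arrays in the fit, the replicate number as a block within each region, and leaving out arrays. Each array of the compared groups was left out in turn, and young KO hippocampus replicate 1 for every comparison. No WT hippocampus array was left out singly, although these arrays enter the shared spread.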

Additional observations from a re-analysis of the deposited data

Results flagged for a closer look

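An interaction test between regions called 26 IDs, whose change with age in KO mice differed between cortex and hippocampus. The change was higher in cortex for 9 IDs, by 0.37 to 0.78 log2, and lower in cortex for 17, by differences from -0.97 to -0.40 log2. In the 9 the median age change was 0.27 log2 in cortex and -0.17 in hippocampus, and in the 17 it was -0.13 and 0.43. The count fell to 1 in some fits without 1 array and reached 117 in another.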

How the results depend on the processing

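For old against young KO cortex, 239 IDs were called as reported and 500 with array weights. The count ran from 65 to 364 when 1 of the 6 KO cortex arrays or young KO hippocampus replicate 1 was left out. The other settings gave 175 to 315, and none called an ID of the 239 in the opposite direction. For WT cortex the count of 148 became 79 from its own 6 arrays and ran from 70 to 207 without 1 array. For KO hippocampus 771 became 476 from hippocampus arrays alone and 10 from its own 6 arrays, and ran from 271 to 899 without 1 array. There rises were 76.8% of calls as reported, 54.7% after quantile normalization and 46.3% after median centring. The difference between KO and WT cortex gave 0 calls as reported and 0 to 3 without 1 array. That between KO cortex and KO hippocampus gave 26 as reported, 50 with the filter at the 60th percentile, 49 after quantile normalization, 52 after median centring, 43 with an intensity trend, 120 with array weights, 1 from the arrays of the compared groups alone, and 1 to 117 without 1 array. The cause was not tested for any of these. Its fit to 1 region was not run, since it needs both.

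With the replicate number as a block within each region, 252 IDs were called in KO cortex (150 rose, 102 fell). The same block gave 138 in WT cortex, 611 in KO hippocampus, 0 for the difference between genotypes and 18 for that between regions. It did not tie cortex arrays to hippocampus arrays. The deviations of same-numbered old and young KO cortex arrays had correlations of 0.049, -0.085 and -0.096. Of the 3 old arrays, 0 correlated best with the young array of its own number. Between same-numbered KO cortex and KO hippocampus arrays, the correlations of deviations were 0.049, 0.290 and 0.154 at the young age. At the old age they were -0.082, 0.189 and -0.127. Whether arrays of both regions shared animals is not known here and was not tested.

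The change of ENSMUSG00000041596 stayed between 1.31 and 1.77 log2 and that of ENSMUSG00000082286 between 1.03 and 1.21, with adjusted p-values of at most 0.00907 and 0.00579 over 17 settings each. ENSMUSG00000062319 stayed between -1.41 and -1.07 with adjusted p-values from 0.00810 to 0.154, and its call was lost in 5 of 17. ENSMUSG00000065419 stayed between -1.52 and -0.96 with adjusted p-values from 0.00973 to 0.220, and its call was lost in 9 of 16. No reversal occurred for these 4 IDs. Signal over background is unknown, which limits the folds of dim IDs.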
